A study of Mus musculus with 8 samples.

Results

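Heme is built by a chain of enzymes and is broken down by heme oxygenase. The genes described here are 7 synthesis enzymes (Alas1, Alad, Uros, Urod, Cpox, Ppox and Fech), heme oxygenase 1 (Hmox1) and Por, which encodes cytochrome P450 oxidoreductase. They were chosen by name, as 9 of the 55487 genes counted, and all 9 were among the 14353 genes that passed the filter on low counts. RNA came from the stromal vascular fraction (SVF) of subcutaneous MC38 tumors, a murine colorectal cancer line labelled with GFP, after the GFP-positive tumor cells had been sorted away. Hosts were Bmal1+/+ mice (4 libraries) or Bmal1-/- mice, which lack Bmal1 in the whole animal (4 libraries), both bred from Bmal1+/- founders, and the same tumor line was implanted in both. The series gives 4 mice a group, but the labels tie no library to an animal, so p-values may measure only the spread between samples. Age, sex and the time of day of collection are not given in the sources used here.

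ALAS1 catalyses the first and rate-limiting step of heme synthesis in most cells, whereas ALAS2 does so in the red cell lineage. In liver much of the heme made goes into cytochromes P450, the oxidases that metabolise drugs, steroids and fatty acids, and POR passes them electrons from NADPH. POR also supplies electrons to the heme oxygenases, which open the heme ring to biliverdin, carbon monoxide and iron. The series compared gene expression in tumor hosts with and without Bmal1, the partner of CLOCK in the core circadian activator, and the heme genes are described within that comparison.

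The sequences just before a RefSeq or GENCODE start are shown for 3 members: Por, the member with the largest change, and Urod and Alad, members of small change whose windows hold the CLOCK-BMAL1 motif. They are from RefSeq, build GRCm38.p6, read 5′ to 3′ on the strand of the gene in lower case, with capitals where a searched motif was found. Por also has annotated starts further upstream, from which no sequence is shown. The Por stretch is the plus strand of chr5:135688895-135689035, the Urod stretch the minus strand of chr4:116994414-116994563 and the Alad stretch the minus strand of chr4:62520064-62520213.
Por: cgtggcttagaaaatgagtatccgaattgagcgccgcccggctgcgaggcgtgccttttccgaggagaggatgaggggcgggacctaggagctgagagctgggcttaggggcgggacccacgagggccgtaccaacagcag
Urod: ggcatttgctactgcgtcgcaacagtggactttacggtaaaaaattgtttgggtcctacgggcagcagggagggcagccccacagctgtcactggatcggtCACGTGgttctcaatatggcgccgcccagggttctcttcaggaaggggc
Alad: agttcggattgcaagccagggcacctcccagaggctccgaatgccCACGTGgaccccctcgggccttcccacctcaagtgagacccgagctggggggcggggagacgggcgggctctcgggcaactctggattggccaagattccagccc

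Motifs were searched on both strands, overlaps allowed, in windows from 250 bases before to 50 bases after each RefSeq start. Windows were at hand for 7 of the 9 members, 10 windows in all, and for all but Fech and Hmox1. The E-box CACGTG, bound by CLOCK-BMAL1, was in 4 windows of 3 members (Alad, Uros and Urod), and in 7.15% of all 32851 windows. None of the windows of Alas1 and Por held that E-box or its variant with the letters CACGTT (4.68% of all windows), and none held either D-box TTATGTAA or TTATGCAA (1.66%), the nuclear receptor site AGGTCA (16.26%) or the antioxidant response element TGACNNNGC (12.39%). Both overlapping windows of Alas1 held the same copy of the site of the nuclear respiratory factor NRF1, which 0.97% of all windows hold. A match here describes letters and not binding, and sites beyond the windows were not examined. The annotated genes Alas1, Uros and Por reach further upstream than their windows, so their most upstream starts were not searched.

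Library totals ranged from 14054825 to 18449143 counts, and the lowest count of any member in any library was 191, so all members lay far above the detection floor of 3 counts. Bmal1 (Arntl) itself had at least 30.1 CPM (counts scaled to a common library total) in each library labelled Bmal1-/- and at most 2.71 CPM in each labelled Bmal1+/+. This is opposite to the labels, but counts per gene do not show whether the deleted part of the gene was read. Both names therefore stand here for the label of a library and not for a genotype shown by the data. Among the regulators of Alas1 listed below, the largest changes were in the clock genes Npas2 (log2 fold change 7.81), Dbp (-4.32) and Nr1d1 (-3.97). Xist had a mean of 942 CPM in the Bmal1+/+ libraries and 0.343 CPM in the libraries labelled Bmal1-/-, whereas Ddx3y of the Y chromosome had 0 and 59.4 CPM, so sex and label cannot be told apart for any result here. The markers went against the labelled tissue. A list of 10 hepatocyte genes had a summed level of 102043 to 116096 CPM in Bmal1+/+ libraries and 59446 to 67597 CPM in the libraries labelled Bmal1-/-. Albumin (Alb) alone carried that fall, from a mean of 69270 to 16144 CPM, and the other 9 summed to 37725 to 44224 CPM and 43734 to 53627 CPM, with 1 of the 10 genes lower, 2 higher and 7 not called. By contrast, 10 fibroblast genes, among them Col1a1 and Pdgfra, had one of 139 to 221 CPM and 105 to 110 CPM, with Fap at no more than 7 counts in a library. In bulk RNA, fewer cells of a type and less RNA per cell cannot be told apart.

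Alas1 and Por fell 5.80-fold and 6.73-fold in the libraries labelled Bmal1-/-, and the log2 fold changes of the other members lay between -0.40 and 0.37. With edgeR's quasi-likelihood test and Benjamini-Hochberg adjustment over all genes, 3 of the 9 members had adjusted p below 0.05, where 31.1% of all genes tested did. Lower were Alas1 and Por, beside 16.2% of all genes, and higher was Urod, beside 14.9%. The median log2 fold change of the 9 was -0.15 and that of all genes tested was 0.02. Normalized CPM did not overlap between the labels for 5 members (Alas1, Alad, Urod, Ppox and Por), beside 33.4% of all genes. The share of members called was thus near that of all genes, and what set Alas1 and Por apart was the size of the fall. Of the 14353 genes, 207 had a lower log2 fold change than Alas1 and 175 a lower one than Por.

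**Figure D1:**
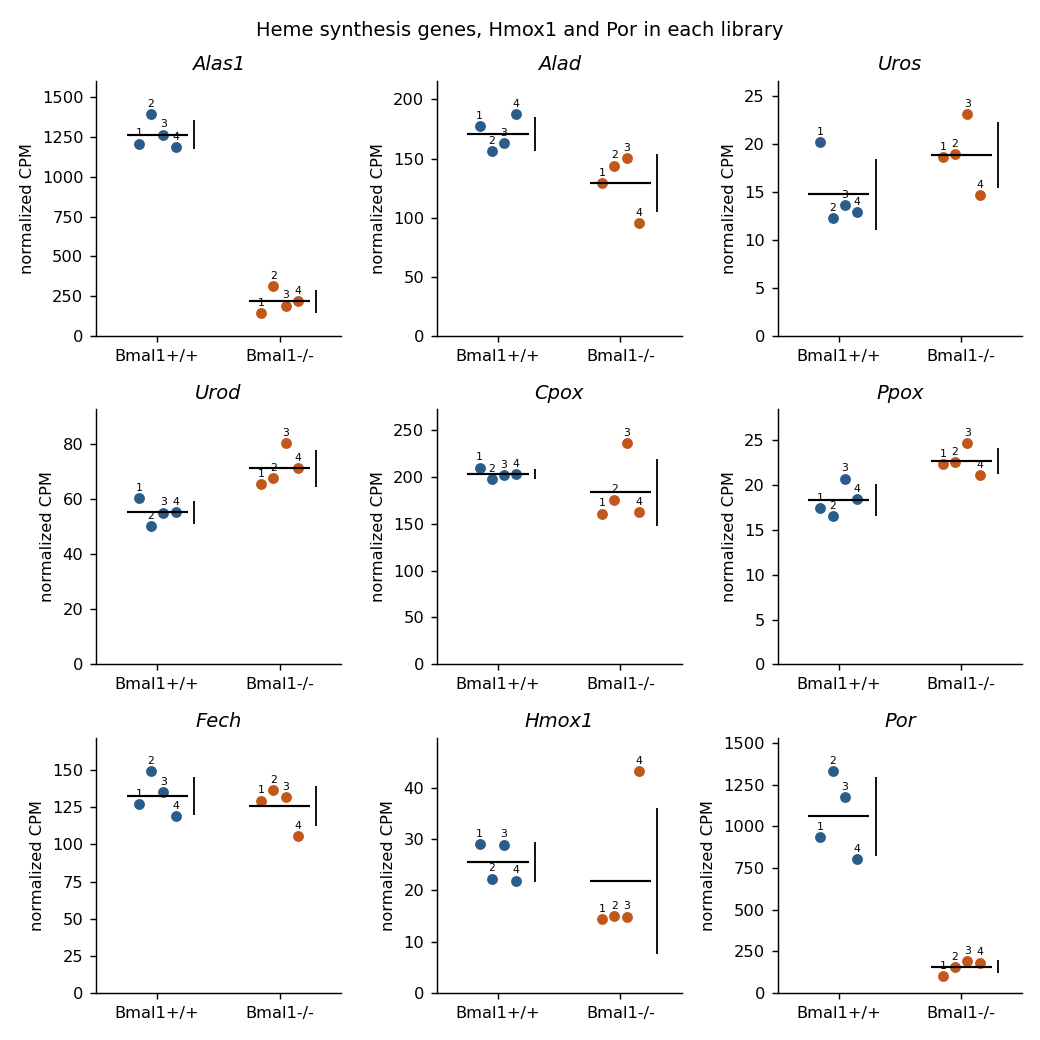
Normalized CPM of the 9 members in each library, by label, with the replicate number above each point. Horizontal lines are means and vertical bars are 1 SD either side (n = 4). Alas1 and Por separate by far in their levels, from at least 1189 and 803 CPM in Bmal1+/+ libraries to at most 315 and 192 CPM, whereas replicate 4 of the libraries labelled Bmal1-/- holds the highest Hmox1 value at 43.2 CPM.

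Alas1 (ENSMUSG00000032786, chromosome 9 from 106233455 to 106248654, GRCm38) had 1208, 1393, 1265 and 1189 CPM in Bmal1+/+ replicates 1 to 4. Replicates 1 to 4 labelled Bmal1-/- had 144, 315, 191 and 220 CPM. The labels were far apart, and among the libraries labelled Bmal1-/- replicate 2 was the highest and replicate 1 the lowest. The means were 1264 ± 91.8 and 218 ± 72.3 CPM (SD, n = 4 each), a 5.80-fold lower level. The log2 fold change was -2.54 (standard error 0.23, 95% interval -3.05 to -2.03, edgeR adjusted p = 5.2e-05). The antisense gene 4930500F10Rik, which shares exon positions with Alas1, had at most 0.361 CPM in any library.

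Por (ENSMUSG00000005514, chromosome 5 from 135670033 to 135735326) had 937, 1332, 1177 and 803 CPM in Bmal1+/+ replicates 1 to 4. In the libraries labelled Bmal1-/- it had 101, 156, 192 and 182 CPM. The groups did not overlap, and the Bmal1+/+ libraries were spread more widely for Por than for Alas1. The means were 1062 ± 237 and 158 ± 40.7 CPM (SD, n = 4 each), a 6.73-fold lower level, and the log2 fold change was -2.75 (standard error 0.24, 95% interval -3.29 to -2.21, edgeR adjusted p = 4.5e-05). The order of the replicates differed between the 2 genes, since replicate 2 had the most Alas1 and replicate 3 the most Por among the libraries labelled Bmal1-/-. Alas1 and Por were called lower under all 17 alternative settings, with log2 fold changes between -2.77 and -2.38 for Alas1 and between -2.87 and -2.58 for Por.

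Of the enzymes after Alas1, ALAD joins 2 molecules of aminolevulinic acid into porphobilinogen. Alad (chromosome 4 from 62509169 to 62519918) had 156 to 187 CPM in Bmal1+/+ libraries. Replicates 1 to 4 labelled Bmal1-/- had 129, 144, 150 and 95.4 CPM. Every one of these lay below the Bmal1+/+ libraries, with replicate 4 the lowest. The log2 fold change of -0.40 (95% interval -0.73 to -0.07) had an edgeR adjusted p of 0.066. DESeq2 called it lower (adjusted p = 0.045), and so did edgeR when replicate 3 labelled Bmal1-/- was left out (adjusted p = 0.045).

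UROS closes the porphyrin ring and UROD removes carboxyl groups from it. Uros (chromosome 7 from 133686243 to 133710072) was the least counted member, with 20.2, 12.2, 13.6 and 12.9 CPM in Bmal1+/+ replicates 1 to 4. In the libraries labelled Bmal1-/- it had 18.6, 18.9, 23.1 and 14.7 CPM. Replicate 1 of Bmal1+/+ was within the range of the other label, so the labels overlapped, and the log2 fold change of 0.35 (95% interval -0.07 to 0.78) had an edgeR adjusted p of 0.19. Without that library it was 0.54 (adjusted p = 0.039). Urod (chromosome 4 from 116989965 to 116994413) had 60.3, 50.1, 55.2 and 55.3 CPM in Bmal1+/+ replicates and 65.6, 67.5, 80.5 and 71.3 CPM in the libraries labelled Bmal1-/-. All 4 of the latter were above all 4 of the former, and the 1.29-fold rise (log2 fold change 0.37, standard error 0.10) had an edgeR adjusted p of 0.022. The call was lost in 4 of the 17 settings: in the fit blocked by replicate (adjusted p = 0.052), and without replicate 2 or replicate 4 of Bmal1+/+ or replicate 3 of the libraries labelled Bmal1-/-, with adjusted p of 0.067, 0.054 and 0.055, and its log2 fold change stayed between 0.29 and 0.41 over the 17 settings.

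CPOX and PPOX carry out the oxidations that lead to protoporphyrin in the mitochondrion. Cpox (chromosome 16 from 58670292 to 58717636) had 198 to 210 CPM in Bmal1+/+ libraries and had 161, 175, 236 and 162 CPM in the libraries labelled Bmal1-/-. Replicate 3 of these was the highest of the 8 libraries, while the other 3 were below every Bmal1+/+ library. The log2 fold change was -0.15 (95% interval -0.45 to 0.16, edgeR adjusted p = 0.45), and without replicate 3 it was -0.30 (adjusted p = 0.044). Ppox (chromosome 1 from 171275990 to 171281186) had 17.5, 16.5, 20.7 and 18.4 CPM in Bmal1+/+ replicates and 22.3, 22.6, 24.7 and 21.1 CPM in the libraries labelled Bmal1-/-. The ranges were close but did not overlap, and the log2 fold change of 0.31 (95% interval 0.07 to 0.55) had an edgeR adjusted p of 0.051. It was called higher in 4 of the 17 settings: by scaling to library size only (adjusted p = 0.047), by limma-voom (adjusted p = 0.049), when Bmal1+/+ replicate 3 was left out (adjusted p = 0.037) and when Bmal1-/- replicate 4 was left out (adjusted p = 0.047). B4galt3, on the opposite strand with shared exon positions, had 5.85 to 11.9 CPM, and whether counting used the strand is not stated.

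FECH inserts iron to complete heme. Fech (chromosome 18 from 64452914 to 64490251) had 127, 149, 135 and 119 CPM in Bmal1+/+ replicates and 130, 136, 132 and 106 CPM in the libraries labelled Bmal1-/-. The ranges overlapped nearly throughout. The log2 fold change of -0.07 had a 95% interval from -0.34 to 0.19, which leaves out changes of the size seen in Alas1, and an edgeR adjusted p of 0.66. The interval of Alas1, with its upper end at -2.03, did not reach that of any other synthesis member, the lowest end of which was -0.73 for Alad.

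**Figure D2:**
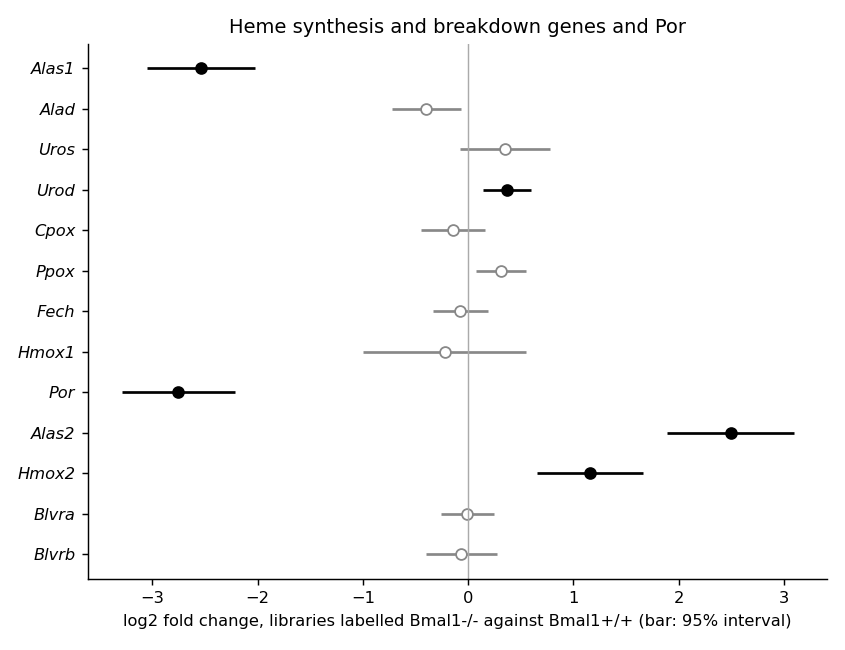
Log2 fold change of the 9 members and of 4 further heme genes (Alas2, Hmox2, Blvra, Blvrb) in the libraries labelled Bmal1-/- against Bmal1+/+. Bars are 95% intervals and filled points have adjusted p below 0.05. Alas1 at -2.54 and Por at -2.75 lie apart from the other members, and Alas2 at 2.49 lies on the opposite side.

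Hmox1 encodes the inducible heme oxygenase, abundant in macrophages that take up red cells and raised by oxidative stress and inflammation. Hmox1 (chromosome 8 from 75093621 to 75100589) had 29.0, 22.3, 28.9 and 21.9 CPM in Bmal1+/+ replicates 1 to 4. Replicates 1 to 4 labelled Bmal1-/- had 14.4, 14.96, 14.9 and 43.2 CPM. Replicates 1 to 3 of that label were nearly equal and below every Bmal1+/+ library, and replicate 4 was above every other library. Over all 8 libraries the log2 fold change was -0.22 (standard error 0.35, edgeR adjusted p = 0.66). Without replicate 4 of the libraries labelled Bmal1-/- it was -0.79 (adjusted p = 0.0029), so this 1 library decided the call.

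Other transcripts moved with Hmox1 in that library. The sum of 10 acute-phase genes was 54696 CPM in replicate 4, against 8335 to 10926 CPM in the other libraries labelled Bmal1-/- and 6536 to 8431 CPM in Bmal1+/+ libraries. The sum of 12 macrophage markers was 710 to 870 CPM in Bmal1+/+ libraries. In replicates 1 to 4 of the libraries labelled Bmal1-/- it was 399, 339, 326 and 625 CPM. Of the 12 markers 10 were lower, beside 16.2% of all genes, and none was at 0. The hemoglobin receptor Cd163, one of the 12, had 43.2, 30.6, 21.3 and 71.0 CPM in the same 4 libraries and 44.3 to 48.8 CPM in Bmal1+/+. Replicate 4 was thus the highest of its label for Hmox1, Cd163, the macrophage sum and the acute-phase sum alike, and the part of these in its Hmox1 level was not tested.

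**Figure D3:**
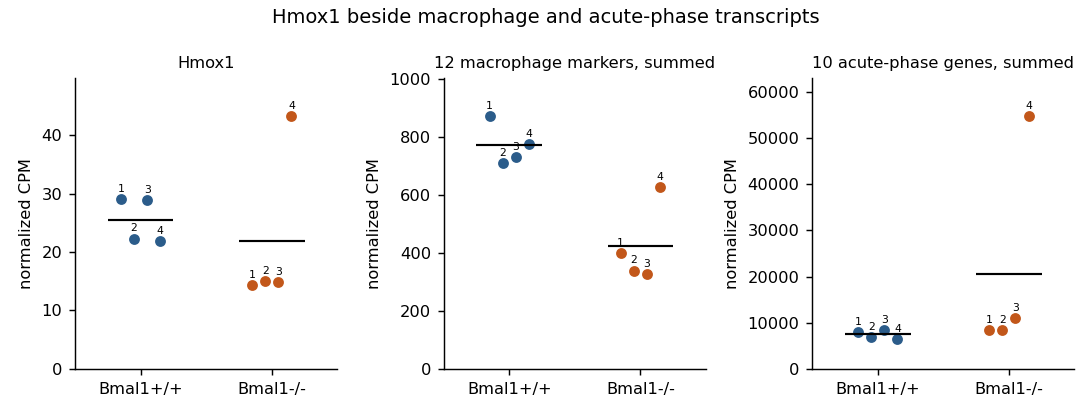
Hmox1, the sum of 12 macrophage markers and the sum of 10 acute-phase genes in normalized CPM, by label, with the replicate number above each point and means as lines. Replicate 4 of the libraries labelled Bmal1-/- is highest of its label in all 3 panels, at 43.2, 625 and 54696 CPM.

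Levels of different genes were compared per length with the deposited FPKM (fragment counts scaled by gene length and library depth). In Bmal1+/+ libraries Por led with 207 ± 45.5 FPKM (SD, n = 4), followed by Alas1 with 112 ± 7.35, Alad with 81.5 ± 6.90, Cpox with 23.6 ± 0.990, Urod with 10.9 ± 0.993, Hmox1 with 10.8 ± 1.90, Fech with 5.91 ± 0.552, Uros with 2.25 ± 0.599 and Ppox with 2.17 ± 0.241 FPKM. Urod and Hmox1 overlapped in range, as did Uros and Ppox, and the other neighbours did not. In the libraries labelled Bmal1-/- Alad was highest with 63.2 ± 12.7 FPKM (SD, n = 4), above Por with 31.3 ± 7.66, Cpox with 21.8 ± 4.16 and Alas1 with 19.7 ± 6.73 FPKM. Here Alad stood apart from Por, whereas Por, Cpox, Alas1 and Urod each overlapped the next in range. In this label replicate 4 had the lowest Alad, Uros, Cpox, Ppox and Fech values and the highest Hmox1 value.

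**Figure D4:**
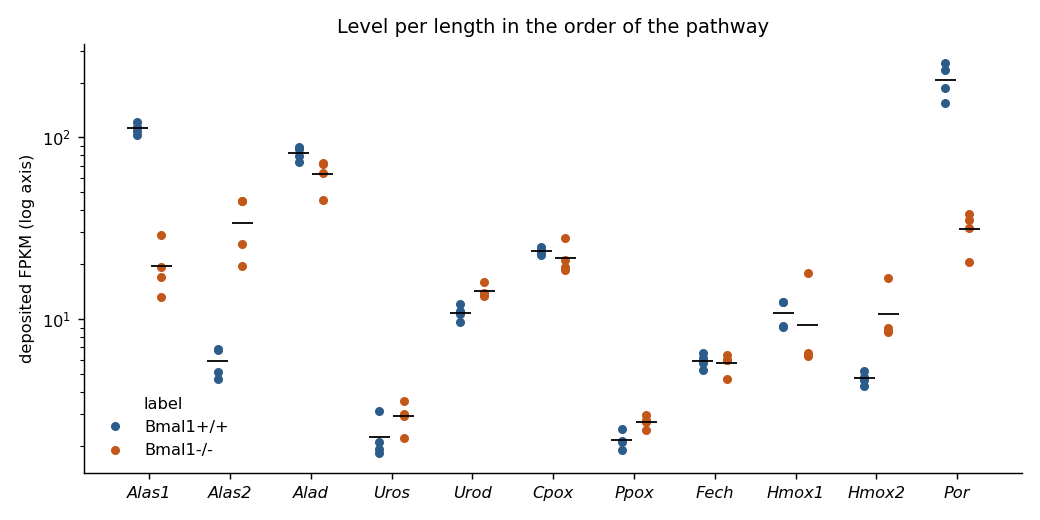
Deposited FPKM of 11 genes on a log axis, in the order of heme synthesis, then breakdown and Por, with 1 point per library and lines at the mean of each label. Alas1 and Por, at 112 and 207 FPKM in Bmal1+/+, stand at 19.7 and 31.3 FPKM in the libraries labelled Bmal1-/-, while Alas2 goes from 5.86 to 33.8 FPKM.

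The order per length depended on the length assigned. The deposited FPKM imply a length of 11162 bases for Alas1, where its principal transcript in GENCODE has 3399, and 2073 for Alad, where it has 1247. With the lengths of the principal transcripts, Alas1 was still below Alad in every library labelled Bmal1-/- (ratio of Alas1 to Alad 0.409 to 0.847) and above it in every Bmal1+/+ library (2.33 to 3.27), but 4 members changed rank in Bmal1+/+ and 7 in the libraries labelled Bmal1-/-. The reversal of Alas1 and Alad thus held with both lengths, and the ranks among the other members did not.

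The other gene of the first step, Alas2, rose where Alas1 fell. Alas2 had 16.3, 22.4, 21.6 and 15.5 CPM in Bmal1+/+ replicates 1 to 4. In the libraries labelled Bmal1-/- it had 140, 139, 82.8 and 64.0 CPM. All of the latter were above all of the former, with replicates 1 and 2 highest, and the 5.63-fold rise (log2 fold change 2.49, standard error 0.27) had an edgeR adjusted p of 1.5e-04. Hemoglobin transcripts, which mark red cells, did not rise with it: of the 6 erythroid markers tested, Hbb-bs, Hbb-bt and Hba-a2 were lower, Alas2 itself was the only one higher, and Hba-a1 and Klf1 did not pass the test. Without Alas2, the other 9 erythroid markers measured summed to 322 to 492 CPM in Bmal1+/+ libraries and to 206 to 301 CPM in the libraries labelled Bmal1-/-, lower and with no overlap, and Slc4a1, Epb42 and Rhag had at most 2 counts in any library, Epb42 0 in all. Apex2, which overlaps exons of Alas2 on the opposite strand, had 3.90 to 11.2 CPM and a log2 fold change of 1.01.

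Within a library, Alas1 exceeded Alas2 by 16.7-fold to 22.0-fold in FPKM in Bmal1+/+ libraries and was 0.294, 0.648, 0.661 and 0.987 of Alas2 in replicates 1 to 4 of the libraries labelled Bmal1-/-. With principal transcript lengths these last ratios were 0.616, 1.36, 1.38 and 2.06. A length scales the ratio alike in every library, so the shift of the ratio between the labels cannot depend on it. Which of both genes was the more abundant in the libraries labelled Bmal1-/- did depend on the length. The summed CPM of Alas1 and Alas2 was between 1204 and 1415 in Bmal1+/+ libraries and between 274 and 455 in the libraries labelled Bmal1-/-. In FPKM the sum was between 108 and 128 in Bmal1+/+ libraries and between 38.9 and 73.8 in the libraries labelled Bmal1-/-. The rise of Alas2 thus did not make up for the fall of Alas1 in either measure, and the part it made up depended on the length.

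Clpx, a mitochondrial unfoldase that takes part in the activation and turnover of ALA synthase, was named after its values were seen. It had 106, 90.7, 75.2 and 98.7 CPM in Bmal1+/+ replicates and 626, 639, 823 and 515 CPM in the libraries labelled Bmal1-/-. These did not overlap, and the log2 fold change was 2.81 (standard error 0.18, edgeR adjusted p = 6.6e-06). Lonp1, a mitochondrial protease of the list and also named after its values were seen, had 176 and 204 CPM on average. Its log2 fold change was 0.21 (edgeR adjusted p = 0.21).

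**Figure D5:**
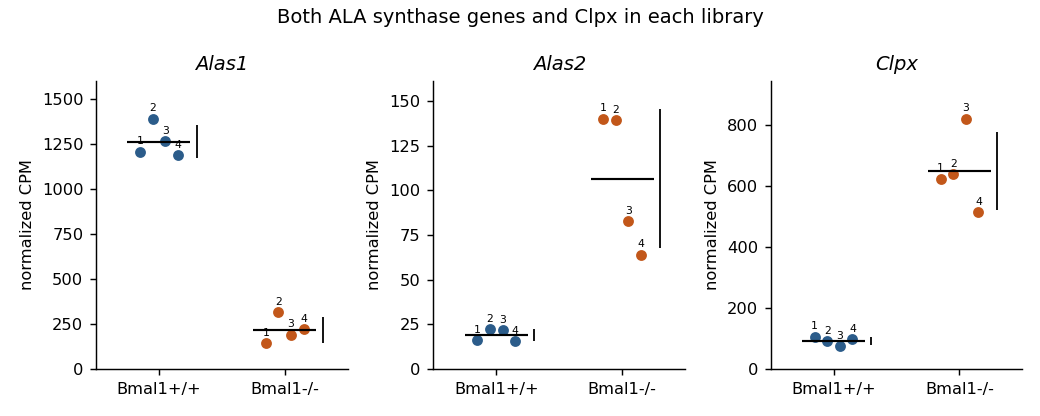
Normalized CPM of Alas1, Alas2 and Clpx in each library, by label, with means as lines, SD as bars (n = 4) and the replicate number above each point. Alas1 is at most 315 CPM in the libraries labelled Bmal1-/-, where Alas2 is at least 64.0 CPM and Clpx at least 515 CPM.

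In the list of 17 regulators of Alas1, 8 were lower, 2 higher and 7 did not pass the test. Of all genes tested 16.2% were lower and 14.9% higher. The median log2 fold change of the list was -0.42 beside 0.02 for all genes. The list holds clock genes and was chosen with earlier results of these data known. Hnf4a, a hepatocyte lineage factor and the most abundant, had 838 ± 105 and 726 ± 91.9 CPM (SD, n = 4 each) and did not pass (edgeR adjusted p = 0.31). Largest were the clock genes Npas2, with at most 0.223 CPM in Bmal1+/+ libraries and at least 31.2 CPM in the libraries labelled Bmal1-/-, Dbp (log2 fold change -4.32) and Nr1d1, which encodes the heme-binding repressor REV-ERBα (log2 fold change -3.97). Of the metabolic regulators, chosen after their values were seen, Ppargc1a, the coactivator that raises Alas1 on fasting, went from 28.5 ± 5.66 to 10.1 ± 3.14 CPM (SD, n = 4 each), a log2 fold change of -1.50 (edgeR adjusted p = 0.000995). Foxo1 (-0.66), the xenobiotic receptor Nr1i2 (-0.42) and Ppara (-0.91) were also lower, at edgeR adjusted p from 0.017 to 0.033, whereas Nr1i3, the receptor CAR, stood at -0.73 (edgeR adjusted p = 0.054).

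Heme breakdown beyond Hmox1 was counted from 3 genes. Hmox2, the constitutive heme oxygenase, had 17.2, 21.6, 18.5 and 19.8 CPM in Bmal1+/+ replicates and 33.9, 33.2, 67.7 and 36.9 CPM in the libraries labelled Bmal1-/-. It was higher in all 4, most in replicate 3, with a log2 fold change of 1.16 (standard error 0.23, edgeR adjusted p = 0.0043). Cdip1 shares exon positions with Hmox2 on the opposite strand and had 87.6 to 190 CPM, and without the strand the reads of both cannot be told apart. The biliverdin reductases did not pass the test: Blvrb, the most abundant of the list, had a log2 fold change of -0.06 and Blvra of -0.01.

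Of 14 genes of heme and porphyrin transport 1 was called, Abcg2, which exports porphyrins from the cell and rose from 43.6 ± 2.35 to 78.9 ± 14.8 CPM (SD, n = 4 each, log2 fold change 0.86, edgeR adjusted p = 0.0014). The most abundant of them, the heme-binding membrane protein Pgrmc1, had a log2 fold change of -0.28 (edgeR adjusted p = 0.13). Of 12 genes that bring iron to ferrochelatase 3 were lower and 1 higher, beside 16.2% and 14.9% of all genes. The transferrin receptor Tfrc fell by 0.81 on the log2 scale, the mitochondrial iron importer Slc25a37 fell by 0.47 and the iron-sulfur assembly gene Isca2, outside the rule for named genes, fell by 0.41. Fdx1, the most abundant, had a log2 fold change of -0.23 and did not pass. None of the 5 plasma heme and hemoglobin clearance genes was called (edgeR adjusted p from 0.067 to 0.71). Hemopexin (Hpx) had 16938 CPM in replicate 4 of the libraries labelled Bmal1-/- and 2682 to 2973 CPM in the other 3.

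POR is one of several electron donors to P450 enzymes. Of 8 genes tested from a list of electron partners, not all of which need serve P450 enzymes, 7 did not pass the test and 1 was lower. The lower gene was Cyb5b, the cytochrome b5 of the outer mitochondrial membrane, with 584 ± 87.0 and 366 ± 36.8 CPM (SD, n = 4 each, log2 fold change -0.68, edgeR adjusted p = 0.0063). The most abundant, Pgrmc1, is given above. Cyb5a of the microsomes and Cyb5r3 were chosen after their values were seen. Cyb5a had 579 ± 11.9 and 518 ± 46.1 CPM (log2 fold change -0.16, adjusted p = 0.31) and its reductase Cyb5r3 a log2 fold change of 0.08 (edgeR adjusted p = 0.69). The median of the 8 was -0.10. In FPKM, Por was 1.59 to 2.55 times Cyb5a in Bmal1+/+ libraries and 0.240 to 0.394 times in the libraries labelled Bmal1-/-. With principal transcript lengths Por was below Cyb5a in every library, at 0.448 to 0.717 and at 0.0674 to 0.111 times. The crossing of Por and Cyb5a thus depended on the length. The fall of the ratio cannot depend on it, since a length scales all libraries alike.

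Of 18 genes listed as hemoproteins of liver 3 were lower, 3 higher and 12 did not pass the test. Their median log2 fold change was 0.05. Among all genes tested 16.2% were lower and 14.9% higher. The most abundant, Cyp2e1, an ethanol-metabolising P450, had 5716 ± 931 and 6084 ± 1253 CPM (SD, n = 4 each, edgeR adjusted p = 0.76). Cyp7b1, an oxysterol hydroxylase, rose by 4.81 on the log2 scale, and Cyp7a1, the rate-limiting enzyme of bile acid synthesis, fell by 2.53. Sc5d, a sterol desaturase that takes electrons through cytochrome b5 and carries no heme of its own, fell by 1.61. It is counted among the 3 lower genes of the list. Catalase (Cat) and Tdo2, abundant heme enzymes of liver chosen after their values were seen, had log2 fold changes of 0.03 and 0.31 and did not pass.

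Of 8 regulators of Hmox1, 4 were lower and none was higher, beside 16.2% and 14.9% of all genes. Bach1, the heme-sensing repressor of Hmox1, had 65.0 ± 9.50 and 34.0 ± 3.72 CPM (SD, n = 4 each, log2 fold change -0.94, edgeR adjusted p = 6.9e-04). Maff (-2.60) and Hif1a (-0.67) were lower too, as was, outside that rule, Nfe2l2, which encodes the activator NRF2, by -0.43. Mafg, the most abundant, had a log2 fold change of -0.05 (edgeR adjusted p = 0.78). Of 8 other NRF2 target genes tested 1 was lower, Nqo1, from 14.03 ± 1.34 to 4.56 ± 1.197 CPM (SD, n = 4 each), and the most abundant, Gclc, had a log2 fold change of 0.40 (edgeR adjusted p = 0.11). Over all the lists together, 20 of 91 genes tested were lower and 9 higher, beside 16.2% and 14.9% of all genes.

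The genes most like each member were sought among 13444 others with a mean of at least 1 CPM, by the root mean square difference of log2 CPM centred over the 8 libraries. Closest to Alas1 were Cyp7a1, at 0.15 on the log2 scale, and the organic cation exporter Slc47a1, at 0.16. Closest to Por were Trim80, at 0.28, and prostacyclin synthase (Ptgis), at 0.31, both of them far less abundant than Por, and Alas1 and Por themselves differed by 0.32. Among the members Urod and Ppox were the closest pair, at 0.11. Since the labels did not overlap for Alas1 and Por, the measure mainly gives, for them, genes with a like difference between the labels.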

How the data were processed

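RNA sequencing of tumor SVF from 4 Bmal1+/+ and 4 Bmal1-/- samples was analysed from 1 deposited table. The paper states that paired-end reads were mapped to GRCm38 with HISAT2 and counted per gene with StringTie, whereas the processing notes name TopHat2 2.0.6 and CASAVA 1.8. The authors deposited whole-number counts, not normalized, and FPKM values, which were used only for levels per length. For 100% of 11442 genes the FPKM equalled the count over 1 gene length and the library's depth, within 1%. Symbols matched 99.4% of identifiers. Coordinates are from GENCODE M21. Symbols of the list genes were matched by name, Ahsp was not matched, and Ndor1, with 2 overlapping identifiers, was left out.

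Low counts were removed by filterByExpr and the rest scaled by TMM. The labels were then compared with the quasi-likelihood test of edgeR 4.0.16 under R 4.3.3, since the study names edgeR and TMM, adjusting p-values over 14353 genes by Benjamini-Hochberg. All p called edgeR adjusted p are from this test. Standard errors are the log2 fold change over the square root of F. Libraries did not duplicate one another (chi-square per degree of freedom at least 20.0). Tests were tested on simulated data. The alternatives were DESeq2 1.42.0, limma-voom (limma 3.58.1), upper-quartile, RLE and library-size scaling, 2 filters on low counts, the replicate number as a block and each library left out. FPKM on the log2 scale (plus 0.1) and other gene lengths were added after the data were seen. Members and lists were chosen with earlier results of these data known. Genes were named by rule: the members, and in each list the most abundant gene and up to 3 with the largest change among those with adjusted p below 0.05 and a mean of at least 1 CPM, others being named where stated. Some genes of the lists are counted but not reported here by name. Intervals and the floor of 3 counts cover counting error only or the spread between these samples. Python 3.11.15 with matplotlib 3.10.9 made the figures.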

Additional observations from a re-analysis of the deposited data

Results flagged for a closer look

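A value was marked where 1 of the 4 libraries of a label stood apart from the other 3 by Dixon's ratio, beyond its 95% critical value. This was examined for 34 genes in both labels, 68 groups, of which chance marks about 1 in 20, and 7 were marked. In replicate 4 of the libraries labelled Bmal1-/-, Hmox1 had 43.2 CPM against 14.4 to 14.96 CPM in the other 3, and Hpx had 16938 CPM against 2682 to 2973 CPM. Hmox2 had 67.7 CPM in replicate 3 of the same label against 33.2 to 36.9 CPM. Maff had 6.43 CPM in replicate 1 of that label against 2.42 to 2.85 CPM. In replicate 4 of Bmal1+/+, Hnf4a had 681 CPM against 877 to 900 CPM, Nqo1 had 16.0 CPM against 13.3 to 13.5 CPM, and Npas2 had 0.223 CPM against 0.120 to 0.134 CPM, at no more than the floor of 3 counts in the other 3 libraries.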

How the results depend on the processing

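Of the members' log2 fold changes under the 17 alternatives, 139 kept direction and side of the threshold, 9 passed it newly and 4 lost it. The other was Fech, not called in any setting, whose log2 fold change of -0.07 lay between -0.13 and 0.0040 with each library left out and changed sign without replicate 4 of the libraries labelled Bmal1-/-. Alas1 and Por were called lower in all 17 settings, and the number of members called lower was between 2 and 4 with each library left out. The number called higher was 1, and it was 2 with library size only and with limma-voom, 0 with the replicate block, and between 0 and 2 with each library left out. The number called in all was 3 and lay between 2 and 5 with each library left out, where 5 was without replicate 4 of the libraries labelled Bmal1-/- and included Hmox1. With the replicate block 2 members were called, as Urod had an adjusted p of 0.052, and no other call on the members changed. Same-numbered samples did not deviate together (r between -0.056 and 0.071 across genes), so the numbers were not treated as pairs. Replicate numbers follow the sample descriptions, and the title of replicate 4 labelled Bmal1-/- bears another number. The calls among all genes were 4457, and between 3599 and 4714 with each library left out. The order of the members per length changed for 2 members in Bmal1+/+ with the median in place of the mean and for 4 with principal transcript lengths, and in the libraries labelled Bmal1-/- for 2 with the union of exons and for 7 with principal transcript lengths, which follows from the lengths themselves. Counting depth does not limit the members, whose lowest count was 191.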
